A study of Mus musculus with 12 samples.

Results

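The mRNAs of 9 microtubule-associated proteins were followed through RNA immunoprecipitation sequencing (RIP-seq) of the m6A readers YTHDF1, YTHDF2 and YTHDF3. The members are Map1a, Map1b, Map1s, Map2, Map4, Map6, Map7, Mapt and Macf1. They were chosen by gene symbol from the 55573 genes counted, and all 9 passed the filter on low counts, among 17126 genes tested. Map1b was included because it is among the most abundant RNAs of the YTHDF1 RIP. Its values wherever that RIP enters are therefore a description with no test, and counts of calls there are over the other 8 mRNAs.

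The cells were primary hippocampal neurons from newborn C57BL/6 mice, an inbred strain, after 14 days in culture. Hippocampi of both sexes were pooled within a litter, and the cultures received Ara-C, a drug that limits dividing glia. Lysates were split among antibodies to endogenous YTHDF1, YTHDF2 or YTHDF3, with part of the lysate kept as Input. Each of the 3 RIPs and Input had 3 libraries, all from untreated neurons of the same kind. Control-antibody pull-downs were not analysed here, so every enrichment is relative to Input, and RNA that sticks to beads or antibody cannot be told apart from RNA bound by the protein.

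Microtubules are the tracks along which neurons move organelles, vesicles and RNA, and microtubule-associated proteins (MAPs) stabilise, space and cross-link them. MAP2 is a marker of dendrites, and tau, the product of Mapt, is found mainly in axons. MAP1B is abundant in growing neurites, and its mRNA is a known target of translational control in neurons. N6-methyladenosine (m6A) is a methyl mark on adenosines of mRNA, placed mostly within short sequences of which GGACT is the best known form, and YTHDF proteins are cytoplasmic proteins that bind it.

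Total counts per library were between 6020072 and 38909592, lowest in the YTHDF2 RIP and highest in the YTHDF1 RIP. Values below are normalized CPM, that is counts scaled to a common library size with TMM factors, a method that takes most genes to keep their share. They are shares of a library, so a rise means a rise relative to other RNAs. Summed CPM of 7 neuronal markers was between 1918 and 2741 in Input and between 1352 and 2571 in the YTHDF1 and YTHDF3 RIPs, and all 7 passed the filter on low counts. In the YTHDF2 RIP it was between 892 and 1266, below every Input library, with a median log2 fold change of -0.84. There 3 of 7 markers were lower and none higher, against 19.0% and 15.7% of all genes tested. The median of the same 7 markers was 0.05 with YTHDF1 and -0.34 with YTHDF3, with 1 of 7 lower each time. Glia were present as well, with 8 astrocyte markers summing to between 1040 and 3554 CPM in Input and between 1216 and 2964 CPM in the RIPs. Median log2 fold changes of these astrocyte markers were -0.88 with YTHDF1, -0.57 with YTHDF2 and -0.68 with YTHDF3. Of the 8, the numbers called lower were 1, 0 and 2 in that order, with none higher. Low marker medians were therefore limited neither to neurons nor to the YTHDF2 RIP. The sum of 7 oligodendrocyte markers was 1263 CPM in YTHDF1 RIP replicate 1, of which Olig1 made up 1194 CPM, against between 55.0 and 331 CPM in the other 11 libraries. Microglial and endothelial markers were near the floor, with 1 of 8 and 2 of 5 passing the filter on low counts and sums of at most 9.75 and 21.9 CPM in any library. In these lysates a higher level per cell and more cells of a type cannot be told apart. Because Input and the RIPs were split from lysates, a marker's level in a RIP also depends on how much of its mRNA was pulled down.

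The members are long genes, and they differ in how many GGACT sequences they hold. Exonic length, the summed length of all annotated exons, ran from 7531 bases for Mapt to 31942 bases for Macf1, against a median of 3885.5 bases over the genes tested. GGACT was searched on the sense strand of the longest protein-coding transcript of each gene in GENCODE (build GRCm38), with no other motif searched. It was found at least once in 92.6% of 13399 such transcripts of the protein-coding genes tested, with a median of 3 per transcript and 1.04 per kilobase. Macf1 held 27, Map1a 17, Map6 11, Map1b 10, Mapt 10, Map7 7, Map4 3, Map2 2 and Map1s 1. Per kilobase the order was different, with 2.24 in Map6, 1.90 in Mapt, 1.65 in Map7, 1.44 in Map1a, 1.15 in Macf1 and 0.847 in Map1b, and at most 0.493 in Map4, Map2 and Map1s. No m6A was measured in these libraries, and a match is a description of the sequence.

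The GGACT nearest to the stop codon is shown for the 5 mRNAs whose levels the results below contrast most, with the motif in capitals and 10 bases on each side, read 5′ to 3′ on the strand of the gene. Those of Map1b (chr13:99431125-99431149, minus strand), Macf1 (chr4:123350897-123350921, minus strand), Mapt (chr11:104328111-104328135, plus strand) and Map2 (chr1:66413539-66413563, plus strand) lie in coding exons. That of Map1a (chr2:121308196-121308220, plus strand) lies after the stop codon, in the 3′ untranslated region.
Map1b: ctgatatccaGGACTctagtttgtc
Macf1: gcctcccccaGGACTccaggtccca
Mapt: tcgacatggtGGACTcaccacagct
Map2: agaaatccagGGACTttttgaagag
Map1a: catgttattgGGACTtggggctaag
The methylatable A of this motif lies 20 bases before the last coding base in Macf1 and 64 bases before it in Mapt, but 2320 and 3888 bases before it in Map1b and Map2, and 121 bases after it in Map1a. Mapt carried 8 of its 10 motifs after the stop codon, and Map1b 1 of its 10. The Map2 transcript searched has 6258 bases, 181 of them after the stop codon, while the exons of the gene cover 16449 bases, so most of the annotated Map2 sequence was not searched and its motif count and position are those of this transcript alone.

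Before any pull-down, Map1b was the leading member. Levels of different genes are compared here as normalized CPM per kilobase of exonic length. That length exceeds the transcript searched above in every member, as for Map2 (16449 against 6258 bases) and Map4 (15143 against 6091 bases). Levels per kilobase may therefore be too low, by different amounts for different genes. In Input they were 235 ± 32.8 for Map1b, 101 ± 36.4 for Mapt, 91.8 ± 12.7 for Map2, 66.5 ± 20.3 for Map1a, 21.7 ± 1.93 for Macf1, 21.1 ± 1.36 for Map4, 16.6 ± 3.48 for Map6, 4.67 ± 0.152 for Map1s and 2.23 ± 1.01 for Map7 (mean ± SD, n = 3). Mapt, Map2 and Map1a did not differ beyond their spread, nor did Macf1 and Map4. By normalized CPM, which also counts length, Map1b was ranked 2 among 13521 protein-coding genes in all 3 Input libraries. By the level per kilobase it ranked between 33 and 45 there, and it ranked 1 in each YTHDF1 RIP library, between 5 and 14 in the YTHDF2 RIP and between 3 and 4 in the YTHDF3 RIP.

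In the MAP1 family, Map1b had the largest log2 difference from Input of any member in the YTHDF1 RIP, a described value. Map1a had the next (2.38), close to Macf1 (2.31). Proteins of this family are made as large precursors that are cleaved into heavy and light chains, and MAP1A takes over from MAP1B as neurons mature. Map1b (ENSMUSG00000052727, chromosome 13, 99421446 to 99516540) was at 4186, 3161 and 3826 CPM in the 3 Input libraries. It reached 29587, 57107 and 36457 CPM in the YTHDF1 RIP, with every library far above Input and replicate 2 the highest. The YTHDF3 RIP held it at 11748, 9227 and 9898 CPM and the YTHDF2 RIP at 7072, 5977 and 5476 CPM, both also above every Input library. The YTHDF1 RIP value was 11.02-fold that of Input, with a log2 difference of 3.46 ± 0.33 (SE). The rise in the YTHDF3 RIP passed the test (log2 fold change 1.47 ± 0.30, edgeR adjusted p = 0.0027). The value of 0.73 ± 0.30 in the YTHDF2 RIP did not (edgeR adjusted p = 0.0790), although DESeq2 and a fit of those 2 groups alone called it.

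Map1a (ENSMUSG00000027254, chromosome 2, 121289600 to 121310832) rose in the YTHDF1 and YTHDF3 RIPs. Its Input libraries were at 1051, 817 and 559 CPM. The YTHDF1 RIP had 5010, 2209 and 5448 CPM, where replicate 2, the highest for Map1b, was the lowest (log2 fold change 2.38 ± 0.45, edgeR adjusted p = 0.000993). With 3119, 2325 and 1509 CPM, the YTHDF3 RIP also lay above every Input library (1.52 ± 0.43, edgeR adjusted p = 0.0159). This call was lost without Input replicate 3 (1.31, adjusted p = 0.0641) or without YTHDF3 RIP replicate 1 (1.24, adjusted p = 0.0597). Fitted alone with the replicate number as a block, the YTHDF3 RIP and Input gave 1.50 (edgeR adjusted p = 2.22e-08). In the YTHDF2 RIP, at 2051, 1011 and 2330 CPM, replicate 2 lay below the highest Input library and the change of 1.15 ± 0.43 missed the threshold (edgeR adjusted p = 0.0571). Without that library the value was 1.44 and passed the test (adjusted p = 0.0309). The log2 ratio of Map1b to Map1a within a library was 2.56, 4.69 and 2.74 in the YTHDF1 RIP against 1.99, 1.95 and 2.78 in Input, so replicate 2 stood alone.

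Map1s (ENSMUSG00000019261, chromosome 8, 70905932 to 70917529), the short and widely expressed member of the family, rose in all 3 RIPs. Input libraries were close together at 35.8, 37.7 and 38.1 CPM, and every RIP library was above them. The YTHDF1 RIP had 90.0, 57.9 and 76.5 CPM (log2 fold change 1.01 ± 0.17, edgeR adjusted p = 0.00048), and the YTHDF2 RIP had 69.7, 68.2 and 73.0 CPM (0.92 ± 0.17, edgeR adjusted p = 0.00193). Levels in the YTHDF3 RIP were lower, at 55.7, 52.9 and 49.1 CPM. The change there, 0.50 ± 0.17, just passed (edgeR adjusted p = 0.0339), and it missed the threshold when any Input or YTHDF3 RIP library was left out. The YTHDF3 RIP and Input fitted alone with the replicate number as a block also gave 0.50 (edgeR adjusted p = 0.000355). These values rest on between 356 and 2111 counts a library.

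**Figure D1:**
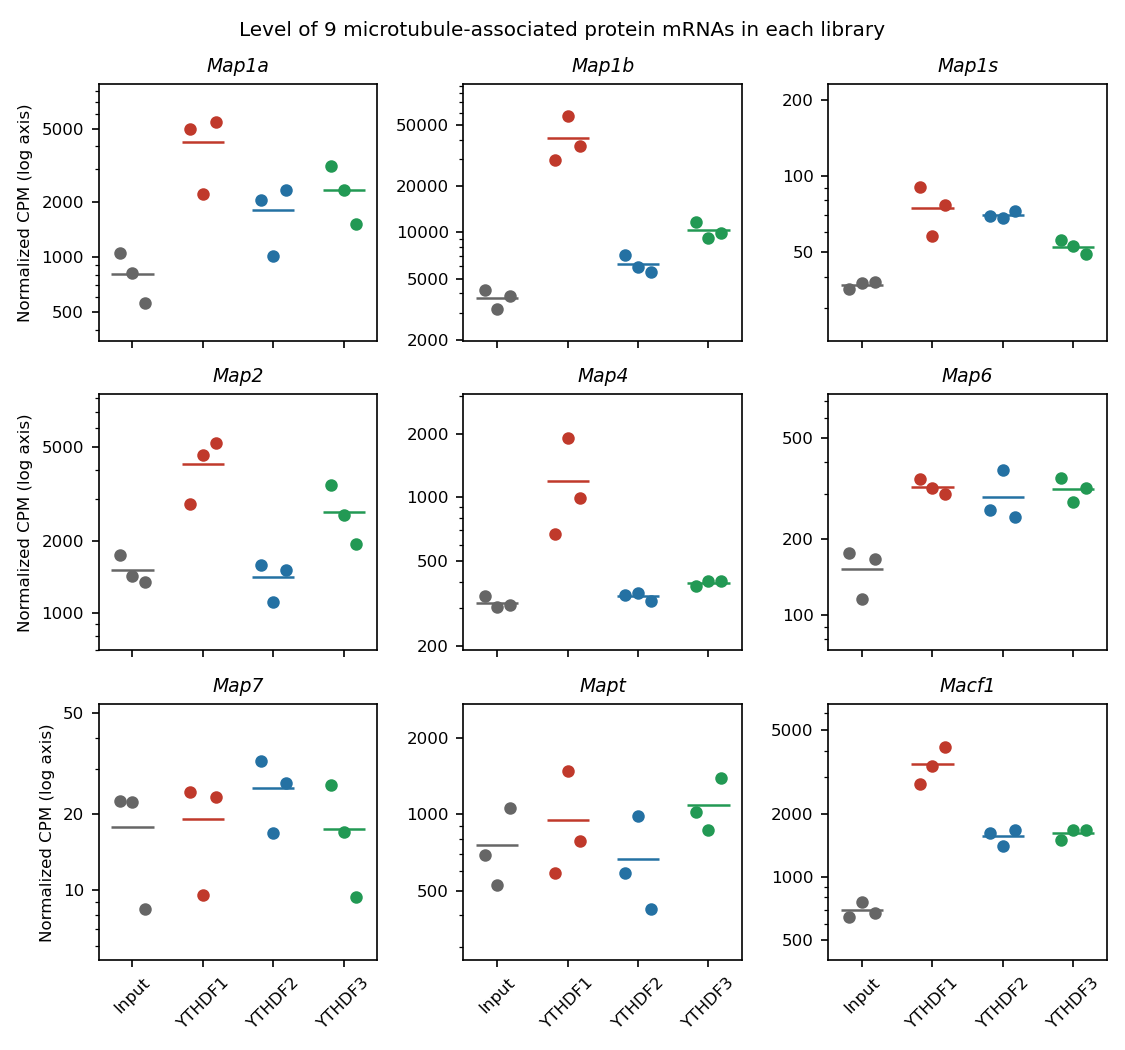
Normalized CPM (log axis, a scale for each gene) of the 9 mRNAs in each of the 12 libraries, with replicates 1 to 3 from left to right and a line at the group mean; grey is Input, red the YTHDF1 RIP, blue the YTHDF2 RIP and green the YTHDF3 RIP. The YTHDF1 RIP libraries of Map1b lie between 29587 and 57107 CPM against at most 4186 CPM in Input, while the groups of Map7 and Mapt overlap.

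MAP2, tau and MAP4 share related microtubule-binding repeats, but their mRNAs behaved differently. In the fit of all libraries Map2 rose in the YTHDF1 and YTHDF3 RIPs, Map4 in the YTHDF1 RIP, and Mapt passed the test in no RIP. Map2 (ENSMUSG00000015222, chromosome 1, 66175273 to 66442583) was at 1746, 1432 and 1353 CPM in Input and at 2881, 4615 and 5189 CPM in the YTHDF1 RIP, without overlap (log2 fold change 1.49 ± 0.30, edgeR adjusted p = 0.00146). These 2 groups fitted alone with the replicate number as a block did not pass (1.45, adjusted p = 0.0798). Equal numbers of the YTHDF1 RIP and Input did not pair over all genes tested (correlations of 0.0907, -0.267 and -0.322), so this block may not mark shared lysates. The YTHDF3 RIP had 3454, 2585 and 1941 CPM, also all above Input (0.82 ± 0.29, edgeR adjusted p = 0.0433). That call was lost with the block in the fit of all libraries (0.81, adjusted p = 0.0695) and in 7 of the 12 fits that left out a library, those without any Input library among them. Each YTHDF3 RIP library was above the Input library of its number, and the YTHDF3 RIP and Input fitted alone with the block gave 0.79 (adjusted p = 2.34e-05). Levels in the YTHDF2 RIP, 1597, 1113 and 1520 CPM, overlapped Input, with a log2 difference of -0.10 ± 0.29 (edgeR adjusted p = 0.813).

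Map4 (ENSMUSG00000032479, chromosome 9, 109931460 to 110083955), the MAP of this family found in most cell types, rose in the YTHDF1 RIP. Input held 343, 304 and 312 CPM. The YTHDF1 RIP held 670, 1915 and 998 CPM, with replicate 2 again the highest and all 3 above Input (log2 fold change 1.90 ± 0.31, edgeR adjusted p = 0.000413). The other RIPs were near Input, with 349, 356 and 326 CPM for YTHDF2 and 384, 403 and 404 CPM for YTHDF3. Their log2 fold changes were 0.11 ± 0.30 (edgeR adjusted p = 0.809) and 0.31 ± 0.30 (edgeR adjusted p = 0.442), although all 3 YTHDF3 RIP libraries lay above the Input libraries. With the replicate number as a block, the YTHDF3 RIP and Input fitted alone also gave 0.31 (edgeR adjusted p = 0.00432). This small rise passed the limit on adjusted p but fell just short of the fold change needed for a call.

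Mapt (ENSMUSG00000018411, chromosome 11, 104231390 to 104332090) had overlapping levels in all 4 groups. They were 689, 524 and 1060 CPM in Input, 588, 1479 and 784 CPM in the YTHDF1 RIP, 589, 981 and 425 CPM in the YTHDF2 RIP, and 1019, 865 and 1387 CPM in the YTHDF3 RIP. The log2 fold changes over Input were 0.33 ± 0.41, -0.19 ± 0.41 and 0.53 ± 0.41 (edgeR adjusted p = 0.525, 0.746 and 0.336). Libraries within a group differed by more than the groups did. Here too each YTHDF3 RIP library exceeded the Input library of its number, and fitting only these groups, with the block, gave 0.56 (adjusted p = 0.000122). The library with the most Mapt in its group was replicate 3 of Input, replicate 2 of the YTHDF1 RIP, replicate 2 of the YTHDF2 RIP and replicate 3 of the YTHDF3 RIP. The same 4 libraries had the most Gfap, an astrocyte filament gene, at 1265, 581, 750 and 677 CPM against between 66.6 and 456 CPM in the other 8 libraries. The summed level of all 8 astrocyte markers did not follow this order in the YTHDF1, YTHDF2 and YTHDF3 RIPs, and the part of astrocytes in the Mapt values was not tested. Over all genes tested, deviations of the RIP libraries among these 4 correlated with those of Input replicate 3 at 0.467 (YTHDF1), 0.560 (YTHDF2) and 0.804 (YTHDF3). The 4 libraries are therefore not independent observations.

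A ratio of 2 mRNAs within a library does not depend on the scaling between libraries. For Map2 to Mapt the log2 ratio was 2.29, 1.64 and 2.73 in the YTHDF1 RIP and 1.34, 1.45 and 0.35 in Input, with no overlap. The means differed by 1.17, or 2.25-fold, with an exact two-sided permutation p of 0.1, the smallest that 3 against 3 libraries can give, and a Benjamini-Hochberg adjusted p of 0.667 over the 10 ratios tested by this exact test. The differences in the YTHDF2 and YTHDF3 RIPs were 0.11 and 0.23 with overlapping libraries (exact permutation p = 0.9 and 0.5). Map4 to Map2 differed from Input by 0.32 with YTHDF1, 0.21 with YTHDF2 and -0.47 with YTHDF3 (exact permutation p = 0.6, 0.4 and 0.2). Map1b to Map1a and Macf1 to Map1b, tested in the YTHDF2 and YTHDF3 RIPs, differed from Input by between -0.38 and 0.45 (exact permutation p from 0.3 to 0.6), and all 10 adjusted values were 0.667 or higher. The exact test does not use the replicate number. For Map2 to Mapt, every YTHDF3 RIP library was above the Input library of its number. For Map4 to Map2 and Macf1 to Map1b every one was below it, and for Map1b to Map1a the direction varied. A paired test of ratios was not run.

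Macf1, Map6 and Map7 belong to neither family. Macf1 and Map6 rose in all 3 RIPs and Map7 in none. Macf1 (ENSMUSG00000028649, chromosome 4, 123349633 to 123684360) encodes a giant spectraplakin that ties microtubules to actin. Its Input libraries had 644, 763 and 677 CPM, the YTHDF1 RIP 2787, 3364 and 4151 CPM, the YTHDF2 RIP 1629, 1407 and 1682 CPM, and the YTHDF3 RIP 1498, 1679 and 1667 CPM. All RIP libraries lay above all Input libraries, and those of the YTHDF1 RIP lay above all others. The log2 fold changes were 2.31 ± 0.21, 1.18 ± 0.21 and 1.22 ± 0.21 (edgeR adjusted p = 1.13e-05, 0.00147 and 0.000765).

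Map6 (ENSMUSG00000055407, chromosome 7, 99267447 to 99337137), whose protein keeps microtubules stable in the cold, rose in every RIP. Input was at 175, 116 and 166 CPM. The YTHDF1 RIP had 344, 317 and 300 CPM, the YTHDF2 RIP 259, 374 and 243 CPM and the YTHDF3 RIP 348, 278 and 315 CPM, none overlapping Input. The log2 fold changes were 1.07 ± 0.22, 0.94 ± 0.22 and 1.04 ± 0.22 (edgeR adjusted p = 0.00171, 0.00677 and 0.00291). For YTHDF2 the fit of those 2 groups with the block did not pass (0.93, adjusted p = 0.0647). Equal numbers of the YTHDF2 RIP and Input did not pair over all genes tested either (correlations of 0.178, -0.323 and -0.313).

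Map7 (ENSMUSG00000019996, chromosome 10, 20148471 to 20281590), which encodes a protein that recruits the motor kinesin-1, was the rarest member. It had 22.5, 22.3 and 8.46 CPM in Input, 24.3, 9.56 and 23.3 CPM in the YTHDF1 RIP, 32.3, 16.9 and 26.4 CPM in the YTHDF2 RIP, and 25.9, 17.0 and 9.42 CPM in the YTHDF3 RIP. The lowest library of each group was the one with the most Mapt, and these libraries also moved together over all genes tested. Its log2 fold changes of 0.10 ± 0.47, 0.50 ± 0.48 and -0.03 ± 0.47 did not pass (edgeR adjusted p = 0.877, 0.439 and 0.967). These values rest on between 79 and 666 counts a library, the fewest of any member.

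More of the MAP mRNAs rose than fell in every RIP. In the YTHDF1 RIP 6 of 8 rose, against 27.2% of all genes tested, and 6 of 8 also without replicate 1, the library with the high Olig1. For YTHDF2, where the neuronal markers had their lowest median relative to Input, it was 3 of 9, against 15.7%, and for YTHDF3 6 of 9, against 16.4%. None fell, where 25.8%, 19.0% and 23.0% of all genes did, and the count that fell was also 0 at an unadjusted p under 0.05 and with DESeq2. Library size in place of TMM, DESeq2, a fit of the 2 groups alone or leaving out YTHDF1 RIP replicate 2 gave 5 rather than 3 of 9 in the YTHDF2 RIP, adding Map1a and Map1b. RIP libraries lay above all Input libraries for 6 of 8, 4 of 9 and 7 of 9 members with YTHDF1, YTHDF2 and YTHDF3, against 27.9%, 25.3% and 26.6% of all genes. The median log2 fold change was 1.28 over 8 mRNAs (YTHDF1), 0.73 over 9 (YTHDF2) and 0.82 over 9 (YTHDF3), beside 0.02, 0.02 and 0.05 over all genes. The 3 comparisons share the Input libraries. Without Input replicate 3 or without YTHDF3 RIP replicate 1, 3 of 9 rose in the YTHDF3 RIP. The YTHDF3 RIP and Input fitted alone with the replicate block called 7 of 9 higher, adding Mapt, beside 5635 of 17126 genes.

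**Figure D2:**
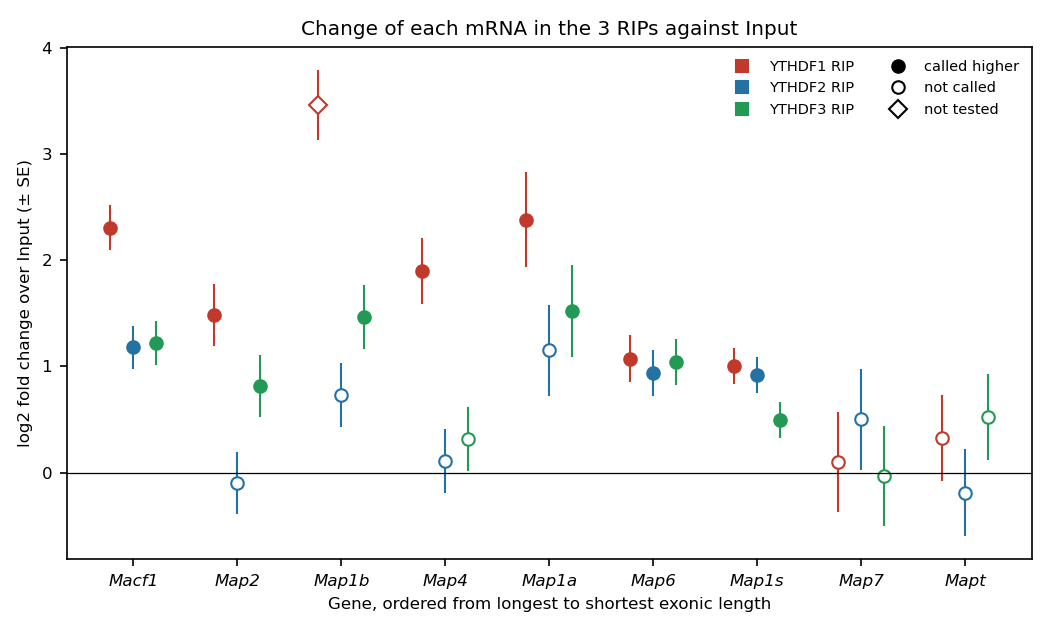
Log2 fold change over Input with its standard error for each mRNA in the YTHDF1 RIP (red), YTHDF2 RIP (blue) and YTHDF3 RIP (green), from edgeR on all 12 libraries; filled points were called higher, open circles were not called, and the open diamond (Map1b in the YTHDF1 RIP) was not tested. Values run from -0.19 for Mapt in the YTHDF2 RIP to 3.46 for Map1b in the YTHDF1 RIP.

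The summed level of the 9 mRNAs shows how much of a library they filled. They made up between 7178 and 8893 CPM in Input, between 41982 and 71074 CPM in the YTHDF1 RIP, between 11304 and 13647 CPM in the YTHDF2 RIP and between 17180 and 21652 CPM in the YTHDF3 RIP. Map1b alone was between 44.0% and 47.8% of that sum in Input and between 68.2% and 80.3% in the YTHDF1 RIP. In the other RIPs its part was between 45.2% and 57.6%. Without Map1b, the other 8 mRNAs still summed to between 12394 and 16970 CPM in the YTHDF1 RIP, against between 4017 and 4706 CPM in Input.

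**Figure D3:**
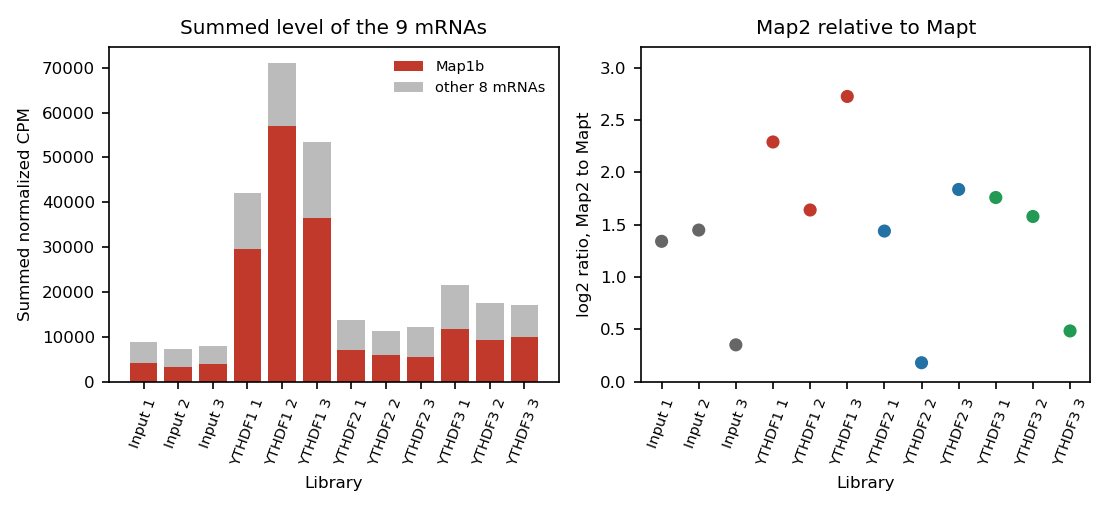
Left, summed normalized CPM of the 9 mRNAs in each library, with Map1b in red and the other 8 in grey; right, log2 ratio of Map2 to Mapt in each library. Map1b makes up between 68.2% and 80.3% of the sum in the YTHDF1 RIP, and the 3 YTHDF1 RIP ratios of Map2 to Mapt, from 1.64 to 2.73, lie above the Input ratios of at most 1.45.

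The RIPs were also compared with each other, at a threshold of a 2-fold difference. Map2, Map4 and Macf1 were higher in the YTHDF1 RIP than in the YTHDF2 RIP, which makes 3 of 8 against 11.4% of all genes, and none was lower (6.10%). Map4 differed by 1.80 ± 0.31 on the log2 scale (edgeR adjusted p = 0.00141), Map2 by 1.58 ± 0.30 (edgeR adjusted p = 0.00227) and Macf1 by 1.13 ± 0.21 (edgeR adjusted p = 0.00194), and for these 3 of 8 the libraries did not overlap (20.4% of genes). Macf1 was under 2-fold with library size alone (0.64) and with TMM over protein-coding genes (0.98), which left 2 of 8. Map1a, at 1.23 ± 0.43, missed the threshold (edgeR adjusted p = 0.0541), but passed it with DESeq2 (1.22, adjusted p = 0.0189) and without YTHDF1 RIP replicate 2 (1.54, adjusted p = 0.0144). The described value of Map1b was 2.73 ± 0.32. Map1s, Map6, Map7 and Mapt had values from -0.40 to 0.52 and overlapped.

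Against the YTHDF3 RIP, Map4 (1.59 ± 0.31, edgeR adjusted p = 0.00394) and Macf1 (1.09 ± 0.21, edgeR adjusted p = 0.00339) were higher in the YTHDF1 RIP, 2 of 8 against 10.8% of all genes, with none lower (3.63%). Libraries of the YTHDF1 RIP lay above those of the YTHDF3 RIP for these and Map1s, 3 of 8 against 20.9%. Macf1 lay close to the 2-fold limit, and without YTHDF1 RIP replicate 3 it fell below it in both pairs of RIPs (0.97 and 0.93). Map1s had an adjusted p of 0.0483 in edgeR but a difference of 0.51 ± 0.17, under 2-fold. The other values ran from -0.20 ± 0.41 for Mapt to 0.87 ± 0.43 for Map1a, none past the threshold, and the described value of Map1b was 1.996 ± 0.31. These differences depend on the scaling between libraries. Library size alone moved the median of all genes in this comparison from 0.19 to -0.54, and 0 of 8 were then called, with Map4 at 0.81 and Macf1 at 0.34.

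Between the YTHDF2 and YTHDF3 RIPs 0 of 9 mRNAs were called in edgeR, beside 3.95% of genes higher and 1.16% lower in the YTHDF2 RIP, and DESeq2 also called 0. At an unadjusted p under 0.05 there were 3 of 9, beside 25.1% of all genes, of which Map1s was higher in the YTHDF2 RIP and Map1b and Map2 lower. Map2 came nearest, at -0.92 ± 0.29 with all 3 libraries of the YTHDF2 RIP below those of the YTHDF3 RIP (edgeR adjusted p = 0.0754). Map1b was at -0.74 ± 0.30 (edgeR adjusted p = 0.151) and Map1s at 0.42 ± 0.17 (edgeR adjusted p = 0.143), both without overlap. In all, 1 of 9 lay above (21.8% of genes) and 3 of 9 below (14.0% of genes).

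Length moved with these values. Across the 17126 genes, the Spearman correlation of exonic length with the log2 fold change over Input was 0.459 for YTHDF1, 0.379 for YTHDF2 and 0.519 for YTHDF3, genes of one library set not being independent. Mapt, the shortest of the 9, is longer than 82.2% of the genes tested. Among the 3052 genes of at least the length of Mapt, 54.8%, 31.0% and 39.7% rose in the 3 RIPs, the second being near the 3 of 9 members, with median log2 fold changes of 0.91, 0.43 and 0.63. Number of GGACT per transcript gave correlations of 0.456, 0.374 and 0.482 over 13399 genes, but GGACT per kilobase gave 0.016, 0.106 and 0.053. Long transcripts hold more copies of any short sequence, and the part of m6A in these values was not tested.

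With a curve of log2 ratio to mean Input against length removed from each library, the members came down. In the YTHDF1 RIP 1 of 8 was still called, against 22.2% of all genes. It was Map1a (log2 fold change 1.35, edgeR adjusted p = 0.0164), and the described value of Map1b was 2.15. Macf1 dropped from 2.31 to 0.34 (adjusted p = 0.152), Map2 from 1.49 to 0.12 (adjusted p = 0.703) and Map4 from 1.90 to 0.64 (adjusted p = 0.102). In the YTHDF2 RIP 2 of 9 were called, Macf1 (0.55, adjusted p = 0.0414) and Map1s (0.58, adjusted p = 0.0319), against 12.9% of all genes. In the YTHDF3 RIP 0 of 9 were called, against 15.0%, with Map1b at 0.75 (adjusted p = 0.0560) and Map1a at 0.91 (adjusted p = 0.103). Between RIPs, Map4 was still higher in the YTHDF1 RIP than in the YTHDF2 RIP (1.01, adjusted p = 0.0294) and than in the YTHDF3 RIP (1.02, adjusted p = 0.0326). Macf1 turned to -0.21 and -0.11, and Map2 fell below 2-fold against the YTHDF2 RIP (0.72, adjusted p = 0.0395). The curve takes out any change that goes with length, whatever its source, and length and binding cannot be told apart here. It uses exonic length, 16449 bases for Map2 and 15143 for Map4, while their transcripts searched for GGACT have 6258 and 6091 bases. Where the mRNAs present are shorter than the exonic length, the curve may take out too much, which was not tested.

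**Figure D4:**
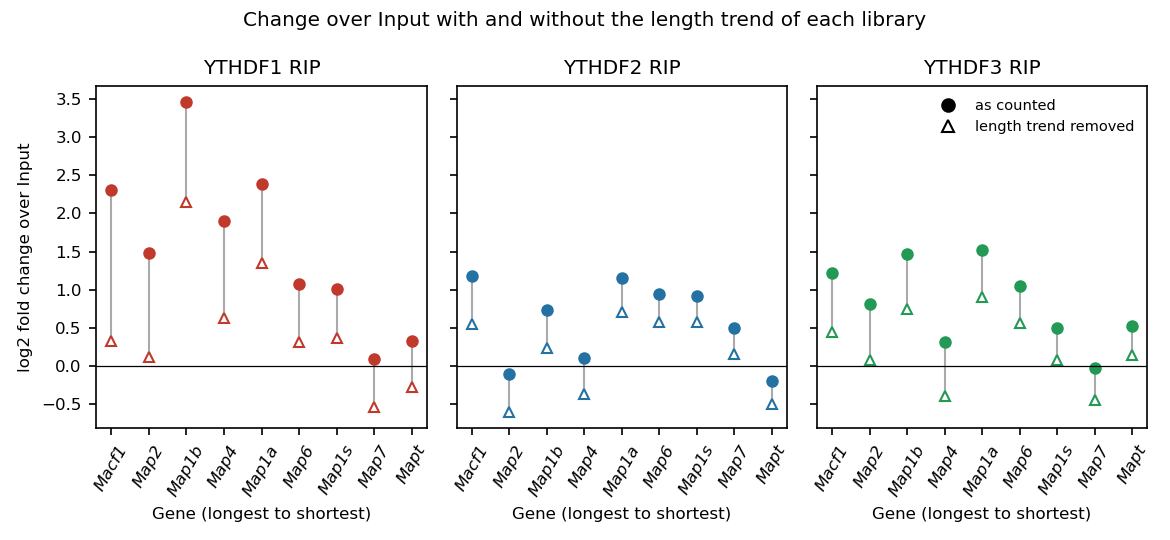
Log2 fold change over Input of each mRNA, ordered from the longest (Macf1) to the shortest (Mapt), as counted (filled circles) and after the length trend of each library was removed (open triangles), in a panel for each RIP. Macf1 in the YTHDF1 RIP drops from 2.31 to 0.34, Map1b from 3.46 to 2.15 and Map1a from 2.38 to 1.35.

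The genes most like Map1b, Map2 and Mapt were sought among 9949 protein-coding genes with a mean of at least 100 normalized counts, by the smallest root mean square difference of log2 CPM, centred on the Input mean, over the 12 libraries. Closest to Map1b were Zfp292 (0.228), Tbc1d24 (0.275) and Pcdh19 (0.279), with log2 fold changes of 3.25, 3.64 and 3.89 in the YTHDF1 RIP and between 0.77 and 1.33 in the other RIPs. Closest to Map2 were Sos1 (0.173), Rims2 (0.192) and Slc44a5 (0.193), with between 1.41 and 1.69 in the YTHDF1 RIP and between -0.04 and 0.11 in the YTHDF2 RIP. Closest to Mapt were Osbpl5 (0.246), Plekha8 (0.246) and Eml1 (0.262), with between 0.25 and 0.30 in the YTHDF1 RIP. Because the match used these same 12 libraries, like fold changes follow from the choice and are a description with no test. All 9 have exonic lengths above the median of all genes tested, from 4915 to 10594 bases. The lengths of the 9949 candidates were not compared.

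Other genes that work on microtubules were counted from lists of relatives of the members, of proteins at microtubule plus and minus ends, and of enzymes. The share of all genes that rose and fell, 27.2% and 25.8% for YTHDF1, 15.7% and 19.0% for YTHDF2, and 16.4% and 23.0% for YTHDF3, stands behind these counts. Of 28 relatives of MAPs tested, 12 rose and 4 fell in the YTHDF1 RIP, 5 rose and 5 fell in the YTHDF2 RIP, and 11 rose and 3 fell in the YTHDF3 RIP, with median log2 fold changes of 0.47, 0.21 and 0.56. The shares that rose were 42.9%, 17.9% and 39.3%, so that for YTHDF2 was near the share of all genes. Map1lc3a, the light chain 3 that associates with MAP1 proteins and marks autophagosomes, was the lowest in all 3 (-2.90 ± 0.35, -2.22 ± 0.35 and -3.27 ± 0.36, edgeR adjusted p of at most 0.000824). The highest were Dpysl2, also known as CRMP2, which binds tubulin dimers, in the YTHDF1 RIP (2.81 ± 0.53, edgeR adjusted p = 0.000976) and the crosslinker Mtcl1 in the YTHDF2 and YTHDF3 RIPs (1.78 ± 0.22 and 1.56 ± 0.22, edgeR adjusted p = 0.000355 and 0.000259).

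Of 16 plus-end proteins, which ride on growing tips, 9 rose and 2 fell in the YTHDF1 RIP, 6 rose and 4 fell in the YTHDF2 RIP, and 9 rose and 4 fell in the YTHDF3 RIP (medians 1.12, 0.26 and 0.87). Apc was the highest each time (2.18 ± 0.27, 1.24 ± 0.26 and 1.57 ± 0.27, edgeR adjusted p of at most 0.00429) and Mapre2, which encodes the end-binding protein EB2, the lowest (-1.31 ± 0.29, -2.03 ± 0.30 and -1.10 ± 0.29, edgeR adjusted p of at most 0.0107). Of 20 minus-end and nucleation proteins, 4 rose and 7 fell, 3 rose and 3 fell, and 6 rose and 4 fell in the YTHDF1, YTHDF2 and YTHDF3 RIPs (medians -0.20, 0.30 and 0.13), and the 15.0% that rose with YTHDF2 was near the 15.7% of all genes. Their extremes were the minus-end protein Camsap2 (1.89 ± 0.28) and γ-tubulin Tubg2 (-1.78 ± 0.43) in the YTHDF1 RIP, the γ-tubulin complex protein Tubgcp6 (1.82 ± 0.18) and the augmin subunit Haus2 (-1.58 ± 0.19) in the YTHDF2 RIP, and Tubgcp6 (1.46 ± 0.18) and Tubg2 (-1.90 ± 0.43) in the YTHDF3 RIP, with edgeR adjusted p of at most 0.00494.

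Kinases that phosphorylate MAPs and tau, 16 in all, had 7 higher and 2 lower in the YTHDF1 RIP, 3 higher and 3 lower with YTHDF2 and 4 higher and 2 lower with YTHDF3 (medians 0.22, -0.41 and 0.12). The tau tubulin kinase Ttbk2 was the highest in the YTHDF1 RIP (2.79 ± 0.29), Cdk5r1, the activator p35 of CDK5, in the YTHDF2 RIP (1.02 ± 0.17) and Mark1 in the YTHDF3 RIP (1.46 ± 0.16). The lowest were Gsk3a in the YTHDF1 and YTHDF2 RIPs (-1.61 ± 0.24 and -1.32 ± 0.24) and Cdk5 in the YTHDF3 RIP (-1.08 ± 0.19), all of these with edgeR adjusted p of at most 0.00176. Severing and tubulin-modifying enzymes, 22 in all, had 6 higher and 5 lower, 4 and 3, and 3 and 2 in the same order (medians 0.25, 0.21 and 0.33). The shares of these enzymes that rose, 27.3%, 18.2% and 13.6%, were near those of all genes. Vash2, a subunit of a tubulin carboxypeptidase, was the highest in the YTHDF1 RIP (1.72 ± 0.46) and the glutamylase Ttll4 in the YTHDF2 and YTHDF3 RIPs (1.46 ± 0.22 and 1.13 ± 0.22). The acetyltransferase Atat1 (-1.37 ± 0.49) was the lowest in the YTHDF1 RIP, with edgeR adjusted p of at most 0.0349 for these.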

How the data were processed

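Per the labels and methods, the authors sequenced stranded total RNA tagged with molecular identifiers (UMIs), processed these with UMI-tools 1.1.1, trimmed with cutadapt 3.4, aligned with STAR 2.7.7a to mm10 (GRCm38) and counted genes of Ensembl 97 with featureCounts 2.0.1. The deposited values are raw counts. A read matching several genes or places was counted for each. No annotated exon of another gene overlapped the members on their strand. Further deposited tables hold comparisons by the authors and were used only for gene names. Gene types, such as protein-coding, were taken from the GENCODE annotation (build GRCm38).

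Here 17126 genes with a mean TMM-normalized count of at least 10 were fitted with edgeR 4.0.16 in R 4.3.3 (quasi-likelihood, 4 groups, 12 libraries, biological coefficient of variation 0.323), with Benjamini-Hochberg adjustment over all of them. Calls need an adjusted p of at most 0.05 and a fold change of at least 1.25 against Input or 2 between RIPs, the limits used in the study. SE is the log2 fold change divided by the root of F. Log2 CPM used a prior count of 2 and the length curve a loess span of 0.3. The methods call the replicates biological but do not give their litters, so p-values measure the spread between these libraries. Alternatives were DESeq2 1.42.0, its size factors, library size, TMM over protein-coding genes, other filters, the replicate block, length removal, 2 groups alone and leaving out each library. Replicates share lysate and Input by the methods, and deviations of equal numbers correlated at 0.829, 0.528 and 0.804 for Input and the YTHDF3 RIP, but not for the other RIPs. All 9 members were named, with the 3 nearest genes of Map1b, Map2 and Mapt and, per list and RIP, the highest and lowest called gene with a mean of at least 100 normalized counts, except a gene not reported here. The members, lists and rules were chosen with earlier results of these data known. The fit was tested on simulated data.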

Additional observations from a re-analysis of the deposited data

Results flagged for a closer look

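Effects over Input that differed between RIPs, by the test of the difference itself, were those of Map2 (log2 1.58), Map4 (1.80) and Macf1 (1.13) between the YTHDF1 and YTHDF2 RIPs, and of Map4 (1.59) and Macf1 (1.09) between the YTHDF1 and YTHDF3 RIPs. With the length trend removed only the Map4 differences were still called, at 1.01 and 1.02. Map1b was not among the tested genes where the YTHDF1 RIP enters. Groups of 3 libraries are too small to mark a single library as standing apart by a test.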

How the results depend on the processing

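Of 1173 tested values (51 changes of a member in a comparison, under 11 alternatives that keep every library and 12 that leave out 1), 1022 kept their direction and side of the threshold. Some of these fits leave out a library of neither group compared. The log2 difference then stays nearly the same, so this count overstates how stable the values are. Of 69 values of Map1b that were described with no test, 7 moved by more than the replicate spread. DESeq2, its size factors, the replicate block and the fit of the 2 groups alone turned no member that had been called. The block over all libraries changed 1 call, that of Map2 in the YTHDF3 RIP (0.81). The numbers of the YTHDF1 and YTHDF2 RIPs did not pair with those of Input, with correlations of equal numbers of 0.0907, -0.267 and -0.322, and of 0.178, -0.323 and -0.313, and library 2 of these RIPs correlated best with Input library 3 (0.467 and 0.560). The block follows the numbers as labelled, so its results for the YTHDF1 and YTHDF2 RIPs, and for all libraries together, rest on numbers that may not mark shared lysates. With 2 groups alone and the block, Map2 in the YTHDF1 RIP (1.45, adjusted p = 0.0798), Map6 in the YTHDF2 RIP (0.93, adjusted p = 0.0647) and, between the YTHDF1 and YTHDF3 RIPs, Map4 (1.45, adjusted p = 0.126) and Macf1 (1.07, adjusted p = 0.233) lost their calls. Map7 had the fewest counts, but its SE of 0.47 in the YTHDF1 RIP was near those of Mapt (0.41) and Map1a (0.45), which had more, so depth and library spread were not separated. The cause of a lost or turned value was not tested, except that leaving out a library leaves fewer samples.

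With the length trend removed, 1 of 8 members was called higher in the YTHDF1 RIP against Input and 0 of 9 in the YTHDF3 RIP, and 1 against the YTHDF2 RIP and 1 against the YTHDF3 RIP were higher in the YTHDF1 RIP. With the block as well these counts were 1, 0, 0 and 0. In the YTHDF2 RIP 5 of 9 were higher than Input with library size alone, with DESeq2 and with 2 groups alone. The count higher in the YTHDF1 than in the YTHDF3 RIP was 0 with library size alone and with 2 groups alone and the block, and 1 with TMM over protein-coding genes, with no low-count filter and with a minimum of 50. The count lower in the YTHDF2 than in the YTHDF3 RIP was 1 with library size alone and with no filter.

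Log2 differences that turned with the length trend removed (then with the block as well) were, in the YTHDF1 RIP against Input, Map7 at -0.54 (-0.52) and Mapt at -0.27 (-0.34), and Map4 in the YTHDF2 RIP at -0.37 (-0.39) and in the YTHDF3 RIP at -0.39 (-0.40). Between the YTHDF1 and YTHDF2 RIPs they were Map1s at -0.21 (-0.23), Map6 at -0.26 (-0.28) and Macf1 at -0.21 (-0.22). Between the YTHDF1 and YTHDF3 RIPs they were Map6 at -0.25 (-0.25), Map7 at -0.090 (-0.033) and Macf1 at -0.11 (-0.11), and between the YTHDF2 and YTHDF3 RIPs Map4 at 0.017 (0.0034), Map6 at 0.013 (0.023) and Macf1 at 0.10 (0.11). With library size alone, those that turned were Map7 at -0.26 and Mapt at -0.12 in the YTHDF1 RIP and Map7 at 0.27 in the YTHDF3 RIP. The YTHDF1 RIP then differed from the YTHDF2 RIP by -0.36 for Map1s, -0.34 for Map6 and -0.023 for Mapt, and from the YTHDF3 RIP by -0.19 for Map1s, -0.069 for Map2, -0.69 for Map6 and -0.54 for Map7. TMM over protein-coding genes gave Map7 -0.15 in the YTHDF1 RIP, Map4 -0.0037 in the YTHDF2 RIP, Map1s -0.043 and Map6 -0.0033 between the YTHDF1 and YTHDF2 RIPs, and Map6 -0.17 and Map7 -0.056 between the YTHDF1 and YTHDF3 RIPs. The minimum of 50 gave Map7 -0.000845 in the YTHDF1 RIP, Map1s -0.011 and Map6 -0.086 between the same pairs. Map7 in the YTHDF3 RIP was 0.00021 with DESeq2, 0.014 with its size factors and 0.082 with no filter, where Map6 between the YTHDF1 and YTHDF3 RIPs was -0.046, -0.053 and -0.16, and Map7 -0.049 with no filter.

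Leaving out 1 library gave between 3 and 5 members higher than Input in the YTHDF2 RIP, where all libraries gave 3. In the YTHDF3 RIP it gave between 3 and 6, where all libraries gave 6. The count higher in the YTHDF1 than in the YTHDF3 RIP, 2 with all libraries, was 1 without YTHDF1 RIP replicate 3. Log2 differences that changed sign ran from -0.23 to 0.42 for Map7 and from -0.14 to 0.65 for Mapt in the YTHDF1 RIP, from -0.20 to 0.045 for Map2 and from -0.58 to 0.13 for Mapt in the YTHDF2 RIP, and from -0.43 to 0.27 for Map7 in the YTHDF3 RIP. Between RIPs they ran from -0.063 to 0.24 for Map1s (YTHDF1 and YTHDF2), from -0.051 to 0.11 for Map6, -0.17 to 0.53 for Map7 and -0.67 to 0.053 for Mapt (YTHDF1 and YTHDF3), and from -0.32 to 0.011 for Map6 and -0.089 to 0.036 for Macf1 (YTHDF2 and YTHDF3). The ratio of Map1b to Map1a in the YTHDF3 RIP ran from -0.29 to 0.23, that of Map2 to Mapt from -0.24 to 0.59 in the YTHDF2 RIP and from -0.12 to 0.62 in the YTHDF3 RIP, and that of Map4 to Map2 from -0.0067 to 0.55 in the YTHDF1 RIP.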
